A study of Mus musculus and Acomys cahirinus with 16 samples.

Results

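The NRF2 antioxidant response was described by 10 genes, chosen by symbol: Nfe2l2, Keap1, Hmox1, Gclc, Gclm, Txnrd1, Srxn1, Slc7a11, Gpx2 and Prdx1. All 10 were found once among the 56980 genes of the mouse count table and once among the 19818 genes of the spiny mouse table, and all 10 had at least 100 counts in every library. The study sequenced polyadenylated RNA from the skin of 2 rodents, the house mouse (Mus musculus) and Acomys cahirinus, an African spiny mouse known for scarless skin repair. Skin of each species was either left untreated or treated with DMBA/TPA, which gave 4 groups of 4 samples: untreated mouse skin, DMBA/TPA-treated mouse skin, untreated spiny mouse skin and DMBA/TPA-treated spiny mouse skin. DMBA is a polycyclic hydrocarbon whose metabolites damage DNA, TPA is a phorbol ester that activates protein kinase C, and painted in sequence on skin they are the classical multistage model of squamous tumours. The labels give neither strain, age and sex of the animals nor dose, duration, site or time of sampling, and they do not say whether a treated sample was tumour or surrounding skin. The spiny mouse is the species the series' title calls resistant to this protocol, so the comparison asked how the antioxidant genes of each species stood under the same named treatment.

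NRF2, the product of Nfe2l2, is a transcription factor that pairs with small MAF proteins on antioxidant response elements. In unstressed cells KEAP1 holds it for ubiquitination by CUL3 and for degradation, and electrophiles that modify KEAP1 cysteines let it accumulate, so that much of its control lies at the protein and is not read by its transcript. Its classical targets import cystine, make glutathione, reduce thioredoxin and peroxiredoxins, degrade haem and supply NADPH, and in skin they protect keratinocytes against reactive metabolites of carcinogens.

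The core of the antioxidant response element was looked for in the mouse promoters of these genes, as background to which members carry that motif close to their start. RefSeq promoter sequences on build GRCm38.p6, covering 250 bases before to 50 bases after each start, were at hand for 8 of the 10 genes, all but Hmox1 and Gclc. The core TGACNNNGC, or its reverse complement GCNNNGTCA, was present in at least 1 promoter of 5 of these 8 genes, Nfe2l2, Gclm, Txnrd1, Srxn1 and Prdx1. For Txnrd1 it was in 1 of its 3 listed promoters. Promoters of Keap1, Slc7a11 and Gpx2 did not hold these letters in that window. The same core occurred in 12.4% of all 32851 promoters of the table and in 14% of its 27025 genes, so a match describes the letters and does not show a bound site. The matches are shown 5′ to 3′ on the strand of the gene with the core in capitals, to let the elements be set beside one another. The core began 240 bases before the start in Nfe2l2, 134 before in Gclm, 92 before in Txnrd1, 133 before in Prdx1 and 29 after the start in Srxn1.
Nfe2l2 chr2:75704855-75704913 (minus strand): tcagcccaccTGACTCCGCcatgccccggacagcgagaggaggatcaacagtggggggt
Gclm chr3:122245383-122245471 (plus strand): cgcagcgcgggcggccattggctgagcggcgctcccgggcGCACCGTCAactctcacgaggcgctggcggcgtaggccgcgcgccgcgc
Txnrd1 chr10:82859074-82859162 (plus strand): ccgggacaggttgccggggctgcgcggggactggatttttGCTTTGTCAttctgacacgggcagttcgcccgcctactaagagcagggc
Srxn1 chr2:152105542-152105570 (plus strand): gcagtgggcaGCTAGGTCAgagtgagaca
Prdx1 chr4:116685426-116685514 (plus strand): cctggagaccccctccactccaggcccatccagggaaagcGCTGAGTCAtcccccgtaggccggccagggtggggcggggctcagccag
The Nfe2l2 match lay on the gene's own strand, and the other 4 lay on the opposite strand. Among the 8 genes that rose in treated mouse skin, Nfe2l2, Gclm, Txnrd1 and Srxn1 held a core in the window, and Slc7a11 and Gpx2 did not. No promoter was at hand for Hmox1 and Gclc, which also rose. Prdx1 held a core and was not called. Whether the motif goes with the change was not tested.

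Libraries held 19608787 to 30198281 counted fragments in mouse and 21143918 to 30561256 in spiny mouse. Levels are given as CPM, counts per 1000000 counted fragments after TMM scaling, and the smallest level that 3 counts can give lay between 0.102 and 0.158 CPM. Epidermal markers were high in all samples, and summed basal keratinocyte markers were higher after treatment without overlap, at 5752 to 8652 against 13600 to 18190 CPM in mouse and 7745 to 9146 against 15940 to 19940 CPM in spiny mouse. Treated libraries of both species also had more of the hyperplastic keratinocyte markers (671 to 1739 against 13390 to 18650 CPM in mouse, 1205 to 2156 against 6376 to 7842 CPM in spiny mouse) and less of the skeletal muscle markers. The hyperplastic sum covers 4 genes in mouse but only 3 of them in spiny mouse, so its level does not compare between the species. Neutrophil markers, 6 genes summed, were higher after treatment without overlap in both, at 9.03 to 37.6 against 844 to 1749 CPM in mouse and 88.8 to 131 against 2243 to 2588 CPM in spiny mouse. The part of these cell types in the members' values was not tested. Anagen hair follicle markers (hair keratins and trichohyalin, 7 genes summed) differed in opposite ways, without overlap in mouse and with overlap in spiny mouse: 9.65 to 2438 CPM in untreated and 21370 to 23720 CPM in treated mouse skin, but 1164 to 11870 CPM in untreated and 202 to 3457 CPM in treated spiny mouse skin. Untreated mouse replicate 2 stood apart with the 2438 CPM (9.65 to 39.5 CPM in the other 3), and untreated spiny mouse replicates 1 and 2 had 10930 and 11870 CPM. Untreated mouse replicate 1 stood apart in hepatocyte markers, with 609 CPM over 6 genes against 5.13 to 6.74 CPM in the other 3, and the same number of members, 8, was called in mouse without it. In such bulk samples fewer cells of a type and less RNA per cell cannot be told apart. The labels do not say that replicates came from separate animals, so the p-values measure the spread between these samples.

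In mouse skin, 8 of the 10 genes rose with treatment and none fell. Those 8 were Nfe2l2, Hmox1, Gclc, Gclm, Txnrd1, Srxn1, Slc7a11 and Gpx2, with rises from 1.57-fold for Nfe2l2 to 16.2-fold for Slc7a11, and only Keap1 and Prdx1 were not called. In spiny mouse skin 3 of the 10 were called: Nfe2l2 and Srxn1 rose, and Gclc fell. The change differed between the species for 6 genes, Gclc, Gclm, Txnrd1, Srxn1, Slc7a11 and Gpx2, and for all 6 it was lower in spiny mouse. A gene was called at a Benjamini-Hochberg adjusted p under 0.05 in edgeR's quasi-likelihood test over all genes, and the species difference is the interaction of species and treatment over shared symbols.

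These counts stand against a large background. In mouse 61.2% of 19740 tested genes were called, 25.9% as higher and 35.3% as lower, and 58.6% had groups that did not overlap, as 8 of the 10 members did. In spiny mouse 55.1% of 14833 genes were called, 28.2% as higher and 26.9% as lower, and 50.9% had groups that did not overlap, against 4 of the 10 members. For the species difference 46.1% of 13656 genes were called, 21.4% as positive and 24.7% as negative. The share of members called at all was therefore above the background in mouse and below it in spiny mouse, and in mouse all 8 called members were higher. The median log2 fold change was 1.16 over the members against -0.15 over all genes in mouse, 0.10 against -0.01 in spiny mouse, and the median species difference was -1.01 against -0.03. Other scalings moved the share of higher calls among all called genes from 42.4% to between 28.6% and 48.4% in mouse, and from 46.4% to between 36.9% and 66.2% for the species difference, and the 8 mouse calls and 6 difference calls of the members were kept under each of them. Of the 10 genes, 3 were called in both species, 5 in mouse only and 2 in neither.

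**Figure D1:**
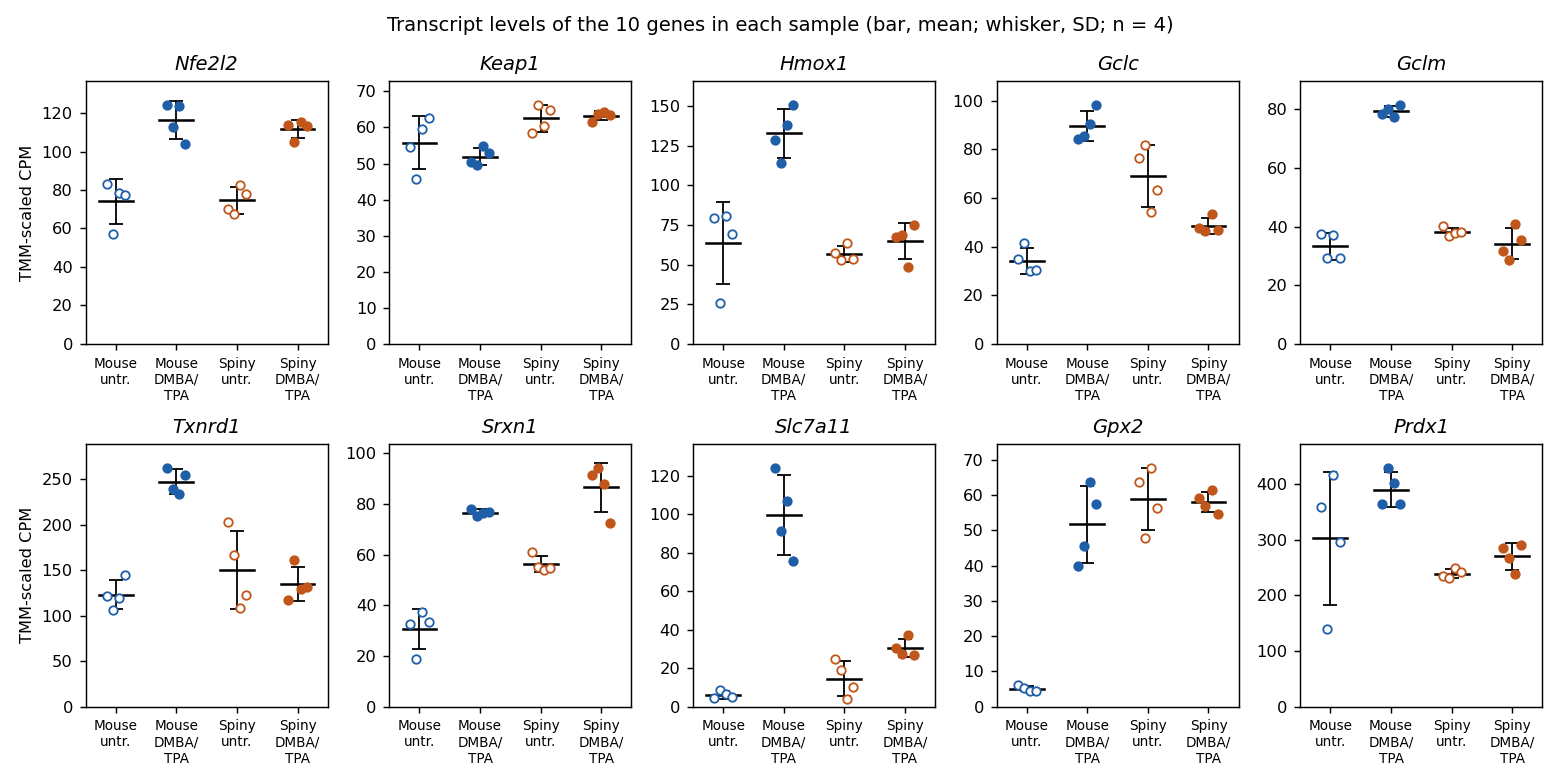
TMM-scaled CPM of each of the 10 genes in every sample, with untreated samples as open and treated samples as filled points, mouse in blue and spiny mouse in orange; bars and whiskers give the mean and SD of 4 samples, and each panel has its own axis from 0. Gpx2 in untreated mouse lies between 4.55 and 6.19 CPM, under all 12 other samples, and Gclc moves up in mouse and down in spiny mouse.

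**Figure D2:**
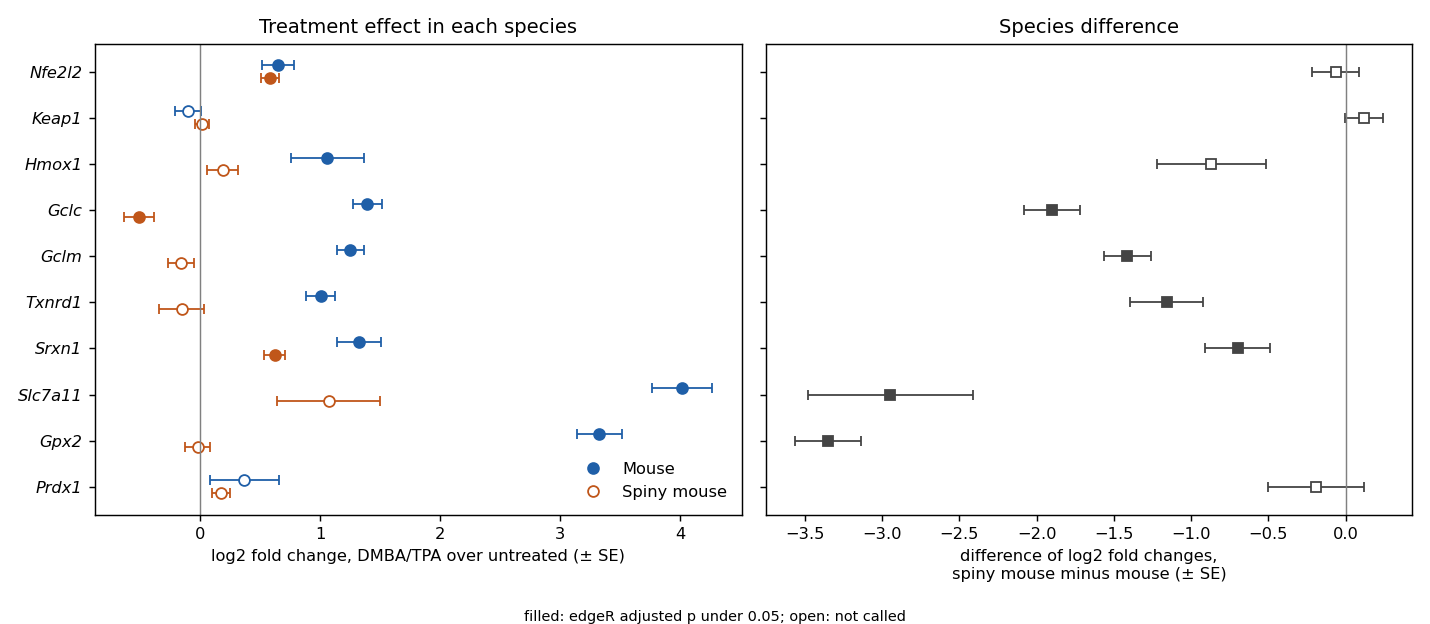
Log2 fold change with treatment in mouse (blue) and spiny mouse (orange) for each gene with its SE (left), and the difference between the species' changes with its SE (right); filled points passed an adjusted p of 0.05 in edgeR. Nfe2l2 lies at 0.65 and 0.58 in the 2 species, while 6 of the genes have a filled point left of 0 on the right.

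Nfe2l2, the gene of NRF2 itself, rose in both species. The mouse gene (ENSMUSG00000015839) lies on chromosome 2, 75505857 to 75534985, minus strand of GRCm39, and the spiny mouse gene on scaffold_10, 10910247 to 10940904, of AcoCah2. Mouse samples had 83.1, 57.1, 78.6 and 77.6 CPM in the untreated samples and 124, 113, 124 and 104 CPM in the treated samples. Spiny mouse samples had 70.2, 67.5, 82.7 and 78.0 CPM in the untreated samples and 114, 105, 116 and 113 CPM in the treated samples. In each species every treated sample lay above every untreated one, and in CPM the levels of the 2 species overlapped in both conditions, while per kilobase of gene length the spiny mouse samples lay above the mouse samples in both. The log2 fold change was 0.65 ± 0.13 (SE), edgeR adjusted p = 0.00258, in mouse and 0.58 ± 0.07 (SE), edgeR adjusted p = 0.000214, in spiny mouse. The difference between them was -0.07 ± 0.15 (SE), with an edgeR adjusted p of 0.752, which is small beside its error and does not show that the responses are equal.

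Keap1, which encodes the sensor that targets NRF2 for degradation, was called in neither species. Mouse Keap1 (ENSMUSG00000003308) was counted over exons on chromosome 9, 21141026 to 21150657, minus strand of GRCm39, and its spiny mouse counterpart on scaffold_8, 46869860 to 46879902, of AcoCah2. Its level was 54.7, 45.8, 59.7 and 62.6 CPM in the untreated samples and 50.6, 49.6, 54.7 and 52.9 CPM in the treated samples of mouse. In spiny mouse it was 58.5, 66.2, 60.4 and 64.9 CPM in the untreated samples and 61.5, 63.7, 64.3 and 63.5 CPM in the treated samples. The groups overlapped in both species, and the log2 fold changes were -0.10 ± 0.11 (SE), edgeR adjusted p = 0.439, in mouse and 0.02 ± 0.06 (SE), edgeR adjusted p = 0.817, in spiny mouse. In mouse the result depended on the scaling: upper-quartile factors gave -0.30 (adjusted p = 0.0155) and library size alone gave -0.33 (adjusted p = 0.0118), both called as lower, and the species difference, 0.12 and not called, was called at 0.28 and 0.34 with these scalings. Its mouse exons share 510 bases with Gm16754 on the opposite strand, and the counts were made without a strand option. That gene averaged 1.30 CPM, which does not show how many Keap1 fragments the overlap affected.

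The ratio of Nfe2l2 to Keap1 within a sample, in counts per gene length, does not depend on the scaling of libraries. In mouse it was 1.88, 1.54, 1.63 and 1.53 in the untreated and 3.04, 2.82, 2.80 and 2.43 in the treated samples. In spiny mouse it was 2.17, 1.85, 2.48 and 2.18 in the untreated and 3.35, 2.98, 3.25 and 3.23 in the treated samples. The groups did not overlap in either species. The log2 ratio was higher after treatment by 0.75 in mouse and by 0.57 in spiny mouse, each with an exact permutation p of 0.0286, the smallest that 4 against 4 samples can give, and 0.0429 after adjustment over 6 ratio tests. The spiny mouse call was lost when any treated replicate was left out (0.55 to 0.60, exact permutation adjusted p = 0.0571). The groups still did not overlap in these cases, and the adjusted p also depends on the other ratio tests. Whether the 2 species differed in this ratio was not tested.

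Slc7a11 encodes the light chain xCT of the cystine/glutamate antiporter that feeds glutathione synthesis, and it had the largest rise of the 10 genes in mouse. Mouse Slc7a11 (ENSMUSG00000027737) was counted over exons on chromosome 3, 49846975 to 50398063, minus strand of GRCm39, and its spiny mouse counterpart on scaffold_7, 91061384 to 91148627, of AcoCah2. Mouse samples had 4.28, 8.64, 6.59 and 5.06 CPM in the untreated samples and 124, 91.4, 107 and 75.9 CPM in the treated samples. Spiny mouse samples had 24.7, 18.9, 4.22 and 10.3 CPM in the untreated samples and 30.6, 27.5, 37.3 and 26.8 CPM in the treated samples. Every treated mouse sample lay far above every untreated one, whereas in spiny mouse the groups did not overlap but came close. There untreated replicate 1, at 24.7 CPM, was nearly as high as the lowest treated sample, at 26.8 CPM, and untreated replicate 2 had 18.9 CPM. The log2 fold change was 4.02 ± 0.25 (SE), edgeR adjusted p = 6.68e-06, in mouse and 1.07 ± 0.43 (SE), edgeR adjusted p = 0.059, in spiny mouse, which misses the threshold. Their difference was -2.95 ± 0.53 (SE), edgeR adjusted p = 0.000384. The spiny mouse change was called when untreated replicate 1 was left out (1.45, adjusted p = 0.0199) or untreated replicate 3 (0.76, adjusted p = 0.0383). It was also called with library size alone (1.08, adjusted p = 0.0492) and by limma with sample weights (1.399, adjusted p = 0.0114). Without the 2 untreated libraries rich in hair follicle markers, a setting added after the values were seen, it was 2.08 (adjusted p = 0.00301). With those 2 and untreated mouse replicate 2 left out, the species difference was -2.22 (adjusted p = 0.000437).

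Slc3a2 encodes the heavy chain 4F2hc that carries xCT to the membrane, and it rose in mouse (1.42 ± 0.10 (SE), edgeR adjusted p = 9.14e-06) but had 0.01 ± 0.18 (SE) on the log2 scale in spiny mouse (adjusted p = 0.955). The difference between the species was -1.41 ± 0.21 (SE), edgeR adjusted p = 7.7e-05. Per gene length, the ratio of light to heavy chain was 0.0131, 0.0290, 0.0231 and 0.0178 in untreated and 0.157, 0.115, 0.135 and 0.0916 in treated mouse samples. In spiny mouse it was 0.130, 0.0836, 0.0362 and 0.0678 in untreated and 0.193, 0.173, 0.198 and 0.144 in treated samples. The ratio was higher in every treated sample of each species, with log2 differences of 2.62 and 1.29 (exact permutation p = 0.0286 and 0.0429 adjusted for each). In spiny mouse this call was lost when any treated replicate was left out (1.23 to 1.39, exact permutation adjusted p = 0.0857), although the groups still did not overlap. Melanocytes also use xCT, and the summed level of 6 melanocyte markers was 11.7 to 106.5 CPM in untreated and 229.5 to 367 CPM in treated mouse skin, and 5.85 to 39.7 and 8.86 to 13.5 CPM in spiny mouse. Their part in the result was not tested.

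Gclc and Gclm encode the catalytic and the modifier subunit of glutamate-cysteine ligase, the rate-limiting enzyme of glutathione synthesis. Both rose in mouse, whereas in spiny mouse Gclc fell. The mouse gene (ENSMUSG00000032350) lies on chromosome 9, 77661817 to 77701767, plus strand of GRCm39, and the spiny mouse gene on scaffold_14, 42682340 to 42725593, of AcoCah2. For Gclc the mouse samples had 34.8, 41.4, 29.9 and 30.5 CPM in the untreated samples and 84.4, 85.7, 90.3 and 98.3 CPM in the treated samples. In spiny mouse the values were 76.5, 82.0, 54.1 and 63.4 CPM in the untreated samples and 47.8, 46.3, 53.4 and 46.9 CPM in the treated samples. Neither species' groups overlapped, and the order was reversed between them: untreated spiny mouse samples all lay above untreated mouse samples, and treated ones all below treated mouse samples. Treatment changed it by 1.39 ± 0.12 (SE), edgeR adjusted p = 2.81e-05, in mouse and -0.51 ± 0.12 (SE), edgeR adjusted p = 0.00753, in spiny mouse, and the difference was -1.90 ± 0.18 (SE), edgeR adjusted p = 1.46e-06. Without the 2 spiny mouse libraries rich in hair follicle markers the fall was -0.28 (adjusted p = 0.0342), which is smaller by more than 1.5 times and still called.

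Mouse Gclm (ENSMUSG00000028124) was counted over exons on chromosome 3, 122039206 to 122064381, plus strand of GRCm39, and its spiny mouse counterpart on scaffold_13, 34784140 to 34805656, of AcoCah2. The mouse exons share 296 bases with Gm17494 on the opposite strand and 244 bases with Gm6061 on the same strand. The effect of these overlaps on the Gclm counts was not tested. For Gclm the mouse samples had 37.5, 29.3, 37.1 and 29.4 CPM in the untreated samples and 78.5, 80.3, 77.4 and 81.5 CPM in the treated samples. In spiny mouse the values were 40.1, 36.9, 37.9 and 38.3 CPM in the untreated samples and 31.8, 28.7, 40.9 and 35.6 CPM in the treated samples. The mouse groups were far apart, while treated replicate 3 of spiny mouse was the highest of all 8 samples of that species and made its groups overlap. The log2 fold change was 1.25 ± 0.11 (SE), edgeR adjusted p = 2.7e-05, in mouse and -0.16 ± 0.11 (SE), edgeR adjusted p = 0.222, in spiny mouse, with a difference of -1.41 ± 0.15 (SE), edgeR adjusted p = 4.75e-06. Without treated replicate 3 the spiny mouse value was -0.26 (adjusted p = 0.0419) and was called as lower.

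The balance of the ligase subunits did not pass the test in either species. Per gene length, Gclc over Gclm was 1.55, 2.36, 1.35 and 1.73 in untreated and 1.80, 1.78, 1.95 and 2.01 in treated mouse samples. In spiny mouse it was 1.14, 1.33, 0.854 and 0.990 in untreated and 0.898, 0.963, 0.780 and 0.787 in treated samples. The log2 ratio differed by 0.14 in mouse (exact permutation p = 0.486, 0.486 adjusted) and by -0.32 in spiny mouse (exact permutation p = 0.114, 0.137 adjusted). Both rest on 1 library: without untreated mouse replicate 2 the difference was 0.29 (adjusted p = 0.0343, exact permutation), and without untreated spiny mouse replicate 3 it was -0.42 (adjusted p = 0.0343, exact permutation).

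**Figure D3:**
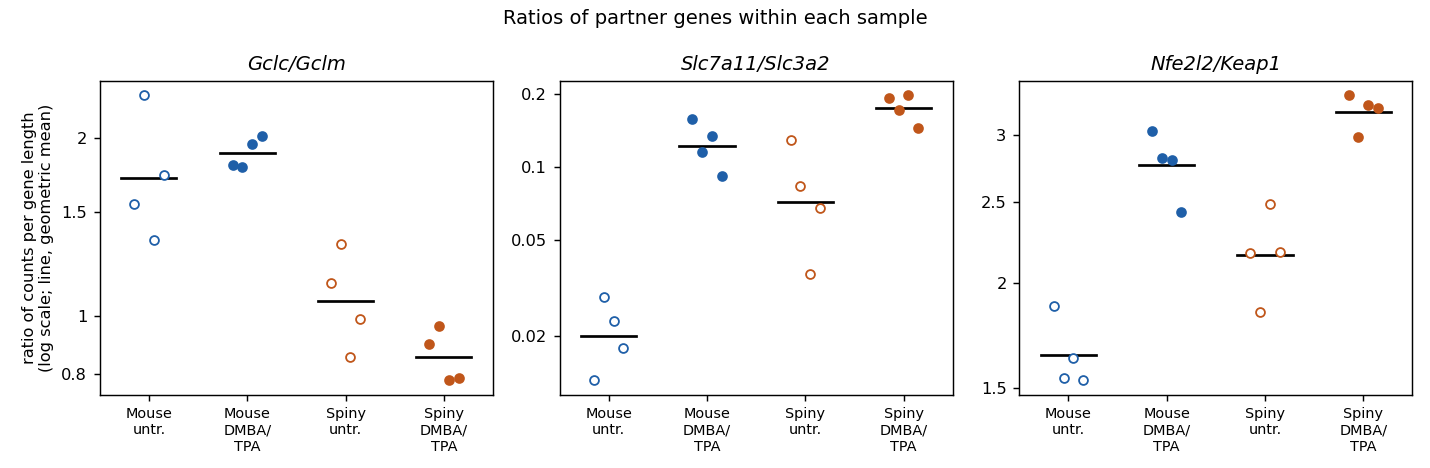
Ratios of counts per gene length within each sample, on log axes, for the ligase subunits, the antiporter chains and factor over inhibitor; open points are untreated and filled points treated samples, and lines are geometric means of 4 samples. For Slc7a11 over Slc3a2 the geometric means of untreated and treated samples are 0.0199 and 0.122 in mouse, with 0.0718 and 0.176 in the spiny mouse, while Gclc over Gclm overlaps between conditions in both.

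Gpx2 encodes an epithelial glutathione peroxidase, and of the 10 genes it had the largest ratio between the untreated means of the species, in CPM and per kilobase. Gpx2 is ENSMUSG00000042808 on chromosome 12, 76839107 to 76842273, minus strand of GRCm39, in mouse, and lies on scaffold_1, 172219310 to 172224063, of AcoCah2, in spiny mouse. Mouse samples had 6.19, 5.26, 4.58 and 4.55 CPM in the untreated samples and 39.8, 45.7, 63.8 and 57.5 CPM in the treated samples. Spiny mouse samples had 63.6, 47.8, 67.8 and 56.3 CPM in the untreated samples and 59.0, 57.0, 61.3 and 54.6 CPM in the treated samples. In CPM, mouse skin went from a level under every spiny mouse sample to one that overlapped them, and the spiny mouse samples stayed in one band in both conditions. The log2 fold change was 3.33 ± 0.18 (SE), edgeR adjusted p = 4.18e-06, in mouse and -0.02 ± 0.10 (SE), edgeR adjusted p = 0.871, in spiny mouse. Their difference of -3.35 ± 0.21 (SE), edgeR adjusted p = 4.14e-08, was the largest among the 10 genes, and it lay between -3.54 and -3.13 under all 26 alternatives tried. Per kilobase of gene length, Gpx2 was at 1.62 ± 0.242 CPM in untreated and 16.3 ± 3.45 CPM in treated mouse skin, and at 54.5 ± 8.12 and 53.7 ± 2.67 CPM in spiny mouse (mean ± SD, n = 4). On that scale every spiny mouse sample lay above every mouse sample, also after treatment. Levels of the 2 species come from annotations with different gene models, 3167 bases of Gpx2 in mouse and 1079 in spiny mouse, so they were not tested against each other.

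Txnrd1 encodes the cytosolic thioredoxin reductase, which keeps thioredoxin reduced at the expense of NADPH. Txnrd1 is ENSMUSG00000020250 on chromosome 10, 82669785 to 82733546, plus strand of GRCm39, in mouse, and lies on scaffold_16, 56085631 to 56143940, of AcoCah2, in spiny mouse. Mouse samples had 122, 106, 119.6 and 145 CPM in the untreated samples and 262, 238, 233 and 254 CPM in the treated samples. The spiny mouse libraries had 203, 167, 108.3 and 122 CPM in the untreated samples and 117, 162, 129 and 132 CPM in the treated samples. All treated mouse samples were above all untreated ones, and in spiny mouse the groups overlapped, with untreated replicates 1 and 2 the highest samples. In edgeR the log2 fold change was 1.005 ± 0.12 (SE), edgeR adjusted p = 0.000157, in mouse and -0.15 ± 0.19 (SE), edgeR adjusted p = 0.513, in spiny mouse, with a difference of -1.16 ± 0.23 (SE), edgeR adjusted p = 0.000917. Without the hair-follicle-rich libraries the spiny mouse value was 0.21 (adjusted p = 0.231), on the other side of 0, and the species difference was -0.82 (adjusted p = 0.00126).

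Srxn1 encodes sulfiredoxin, which restores overoxidised peroxiredoxins, and with Nfe2l2 it was 1 of the 2 genes that rose in both species. The mouse gene (ENSMUSG00000032802) lies on chromosome 2, 151947436 to 151953296, plus strand of GRCm39, and the spiny mouse gene on scaffold_1, 82648123 to 82654641, of AcoCah2. Mouse samples had 32.7, 18.9, 37.4 and 33.5 CPM in the untreated samples and 78.1, 75.2, 76.3 and 76.8 CPM in the treated samples. Spiny mouse samples had 61.0, 55.1, 54.1 and 54.9 CPM in the untreated samples and 91.3, 94.3, 88.0 and 72.6 CPM in the treated samples. Groups did not overlap in either species, untreated spiny mouse samples lay above all untreated mouse samples, and the treated samples of the species overlapped. As a log2 fold change this gave 1.32 ± 0.18 (SE), edgeR adjusted p = 0.000333, in mouse and 0.62 ± 0.09 (SE), edgeR adjusted p = 0.000381, in spiny mouse, with a difference of -0.70 ± 0.21 (SE), edgeR adjusted p = 0.0135. Untreated mouse replicate 2 had the lowest level, and without it the mouse change was 1.24 and the difference -0.62.

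Prdx1, an abundant peroxidase that uses thioredoxin and is a substrate of sulfiredoxin, was not called in either species. The mouse gene (ENSMUSG00000028691) lies on chromosome 4, 116542741 to 116558019, plus strand of GRCm39, and the spiny mouse gene on scaffold_15, 15530993 to 15545494, of AcoCah2. Mouse samples had 359, 139.6, 415 and 295 CPM in the untreated samples and 364, 429, 402 and 364 CPM in the treated samples. Spiny mouse samples had 234, 232, 249 and 242 CPM in the untreated samples and 286, 266, 238 and 291 CPM in the treated samples. Untreated mouse replicate 2 was by far the lowest mouse sample, and the groups overlapped in both species. The log2 fold change was 0.37 ± 0.29 (SE), edgeR adjusted p = 0.286, in mouse and 0.18 ± 0.08 (SE), edgeR adjusted p = 0.0741, in spiny mouse, and the difference was -0.19 ± 0.31 (SE) (adjusted p = 0.644). Without untreated mouse replicate 2 the mouse value was 0.22 (adjusted p = 0.112), and without treated replicate 3 the spiny mouse value was 0.23 and called (adjusted p = 0.0223).

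Hmox1 encodes inducible haem oxygenase, which releases iron, carbon monoxide and biliverdin from haem, and it rose in mouse. Hmox1 is ENSMUSG00000005413 on chromosome 8, 75820249 to 75827217, plus strand of GRCm39, in mouse, and lies on scaffold_12, 71192103 to 71197789, of AcoCah2, in spiny mouse. Mouse samples had 79.2, 25.8, 80.7 and 69.1 CPM in the untreated samples and 129, 114, 138 and 151 CPM in the treated samples. Corresponding spiny mouse values were 57.5, 53.2, 64.0 and 53.2 CPM in the untreated samples and 67.7, 68.8, 48.5 and 75.2 CPM in the treated samples. The mouse groups did not overlap, with untreated replicate 2 far below the other 3 untreated samples, and the spiny mouse groups overlapped because treated replicate 3 was the lowest sample of all 8. Expressed as log2 fold change, this was 1.06 ± 0.31 (SE), edgeR adjusted p = 0.0141, in mouse and 0.19 ± 0.13 (SE), edgeR adjusted p = 0.235, in spiny mouse. Their difference of -0.87 ± 0.35 (SE) missed the threshold (adjusted p = 0.0558) and passed it under 10 of 26 alternatives, among them leaving out untreated mouse replicate 2 (-0.70, adjusted p = 0.00349). Without treated replicate 3 the spiny mouse change was 0.31 and called (adjusted p = 0.0166). Macrophages express Hmox1, and their 7 summed markers were at 382 to 1002 CPM in untreated and 445 to 638 CPM in treated mouse skin, and at 466 to 533 and 935 to 1550 CPM in spiny mouse, where these groups did not overlap. The part of macrophage content in the Hmox1 values was not tested.

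Set beside one another per kilobase of gene length, the genes kept their extremes in every group. Prdx1 was highest in all 4 groups, at 99.3 ± 39.1 CPM per kilobase in untreated and 128 ± 10.5 in treated mouse skin, and at 198 ± 6.46 and 224 ± 19.8 in spiny mouse. On that scale Slc7a11 was lowest in all 4. It had 0.441 ± 0.138 in untreated and 7.15 ± 1.49 in treated mouse skin, and 1.71 ± 1.07 and 3.59 ± 0.565 in spiny mouse (mean ± SD, n = 4). Its place depends on the deposited length, 13922 bases in mouse and 8509 in spiny mouse. In CPM it was lowest in both spiny mouse groups but not in mouse. Untreated mouse skin had 6.14 CPM of it against 5.15 CPM of Gpx2. Treated mouse skin had 99.6 CPM of it, above Gclc at 89.7, Gclm at 79.4, Srxn1 at 76.6, Keap1 at 51.9 and Gpx2 at 51.7 CPM. It was below Nfe2l2, Hmox1, Txnrd1 and Prdx1 there. Per kilobase, the order below Prdx1 in untreated mouse skin was Hmox1, Nfe2l2, Txnrd1, Keap1, Srxn1, Gclc, Gclm, Gpx2 and Slc7a11. Ranges overlapped between Prdx1 and Hmox1, Hmox1 and Nfe2l2, Nfe2l2 and Txnrd1, Keap1 and Srxn1, and Srxn1 and Gclc. After treatment Txnrd1 stood above Nfe2l2, and Gpx2, which overlapped Gclm, stood above Gclm. Keap1 then stood below Srxn1, Gclc, Gpx2 and Gclm. Among treated mouse samples the other neighbours with overlapping ranges were Nfe2l2 and Srxn1. In untreated spiny mouse skin the order was Prdx1, Gpx2, Txnrd1, Hmox1, Nfe2l2, Gclc, Gclm, Srxn1, Keap1 and Slc7a11, with overlaps from Gpx2 to Txnrd1, from Txnrd1 to Hmox1, from Gclc to Gclm and from Gclm to Srxn1. After treatment Nfe2l2 and Srxn1 stood higher in that order and Txnrd1 and Gclc lower, and the neighbours that overlapped were Nfe2l2 and Hmox1, Hmox1 and Txnrd1, Gclm and Gclc, and Gclc and Keap1.

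On both scales, CPM and CPM per kilobase, untreated spiny mouse samples all lay above untreated mouse samples for 3 genes, Gclc, Srxn1 and Gpx2. In treated skin the mouse samples lay above the spiny mouse samples on both scales for 3 genes, Hmox1, Gclc and Slc7a11, and the reverse held for 1, Keap1. In treated skin Gclm and Prdx1 changed order with the scale, with mouse samples above in CPM and spiny mouse samples above in CPM per kilobase. In the remaining cases the ranges overlapped on at least 1 scale. How often the levels of the species separate in this way over all shared genes was not tested. These counts therefore do not set the members apart from other genes.

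Gclc followed the hair follicle marker level in the sense that, in each species, its highest samples were those with the most marker RNA. In spiny mouse, untreated replicates 1 and 2, with 10930 and 11870 CPM of hair follicle markers, had 76.5 and 82.0 CPM of Gclc, and untreated replicates 3 and 4, with 1164 and 3535 CPM, had 54.1 and 63.4 CPM. Untreated mouse replicate 2, with 2438 CPM of the markers, had 41.4 CPM of Gclc against 29.9 to 34.8 CPM in the other 3. Txnrd1 was likewise highest in untreated spiny mouse replicates 1 and 2, but in mouse it was lowest in untreated replicate 2. Nfe2l2, Hmox1, Gclm and Srxn1 were also lowest in that mouse sample, at 57.1, 25.8, 29.3 and 18.9 CPM. Slc7a11 was highest there among untreated mouse samples, at 8.64 CPM. Treated spiny mouse replicates 1 and 2, with 239 and 202 CPM of the markers, had 30.6 and 27.5 CPM of Slc7a11, above all untreated ones. Gpx2 had no such order in spiny mouse, where samples with 202 to 11870 CPM of hair follicle markers all had 47.8 to 67.8 CPM of Gpx2. In mouse the hair follicle markers differed between the groups without overlap, as the 8 rising genes did, so a response of these genes and a different hair follicle content cannot be told apart in mouse skin.

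**Figure D4:**
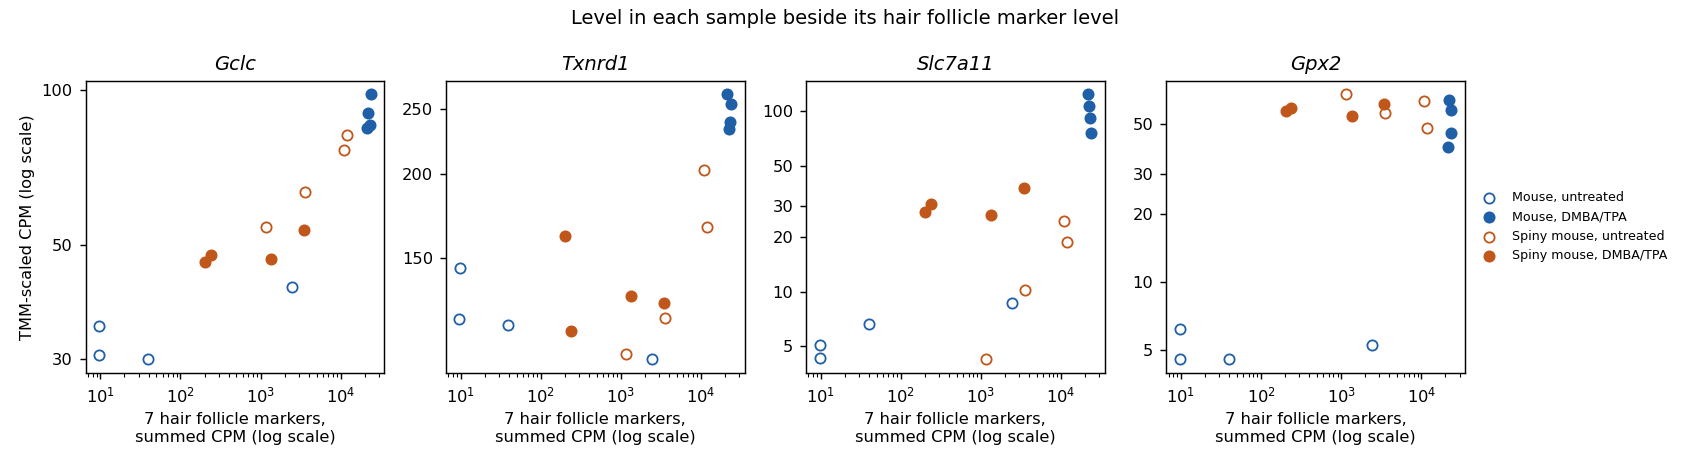
Level of Gclc, Txnrd1, Slc7a11 and Gpx2 in each of the 16 samples against the summed level of 7 anagen hair follicle markers, both in CPM on log axes; open points are untreated and filled points treated samples. Treated mouse samples sit at the right edge at 21370 to 23720 CPM of markers, and Gpx2 of spiny mouse runs level across the marker range.

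Among 17 direct partners or copies of the members, 8 rose and 2 fell in mouse, and 5 rose and 2 fell in spiny mouse, with a median log2 fold change of 0.15 and 0.01. Of them 10 were called in mouse and 7 in spiny mouse, against 61.2% and 55.1% of all tested genes. Neither share was above that background. Over all tested genes 25.9% were called as higher in mouse and 28.2% in spiny mouse. Txn1, the thioredoxin that Txnrd1 reduces, rose in both (1.31 ± 0.21 (SE) in mouse and 1.94 ± 0.14 (SE) in spiny mouse, edgeR adjusted p = 0.000761 and 1.76e-05). Untreated and treated mouse skin had 74.1 ± 22.3 and 183 ± 11.3 CPM of it, against 190.0 ± 19.9 and 728 ± 128 CPM in spiny mouse (SD, n = 4). Gsr, glutathione reductase, also rose in both, with log2 fold changes of 0.59 ± 0.12 (SE) and 0.48 ± 0.08 (SE) (adjusted p = 0.00212 and 0.00107). G6pdx, the entry enzyme of the NADPH-yielding pentose phosphate pathway, moved in opposite directions: it rose in mouse by 1.83 ± 0.14 (SE), edgeR adjusted p = 1.47e-05, and its log2 fold change in spiny mouse was -0.51 ± 0.07 (SE), edgeR adjusted p = 0.000218, a fall from 161 to 178 to 115 to 132 CPM. The difference was -2.35 ± 0.15 (SE), edgeR adjusted p = 4.63e-08. Prdx2, a cytosolic peroxiredoxin, rose in mouse (0.90 ± 0.22 (SE), edgeR adjusted p = 0.00628) and had -0.29 ± 0.11 (SE) in spiny mouse (adjusted p = 0.0522), a difference of -1.19 ± 0.26 (SE), edgeR adjusted p = 0.00157.

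Nqo1, the quinone reductase often read as a marker of NRF2, was called in neither species. Its level was 12.2 ± 2.32 and 13.2 ± 1.25 CPM in untreated and treated mouse skin, and 12.4 ± 1.98 and 16.6 ± 3.46 CPM in spiny mouse (SD, n = 4). Its log2 fold change was 0.12 ± 0.16 (SE) in mouse and 0.42 ± 0.17 (SE) in spiny mouse (edgeR adjusted p = 0.512 and 0.0554). Gss, which completes glutathione, rose in mouse (0.48 ± 0.15 (SE), edgeR adjusted p = 0.0182), a call lost with upper-quartile scaling (0.26, adjusted p = 0.215) and with library size alone (0.23, adjusted p = 0.265), and had -0.30 ± 0.16 (SE) in spiny mouse (adjusted p = 0.134). Cul3, the scaffold of the KEAP1 ligase, and Sqstm1, the autophagy receptor that binds KEAP1, were called in neither species. Bach1, a repressor at the same elements, rose in spiny mouse by 0.28 ± 0.09 (SE), edgeR adjusted p = 0.0211, but not without untreated replicate 1 (0.25, adjusted p = 0.0711) or untreated replicate 4 (0.25, adjusted p = 0.0621), with the replicate block (0.29, adjusted p = 0.0512) or without the 2 hair-follicle-rich libraries (0.19, adjusted p = 0.198).

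Of the copies of the members, Gpx1, the ubiquitous glutathione peroxidase, rose by 0.75 ± 0.20 (SE) in mouse and 0.60 ± 0.12 (SE) in spiny mouse (edgeR adjusted p = 0.0107 and 0.00307). Gpx4, which reduces lipid peroxides, fell by 0.31 on the log2 scale in spiny mouse (SE 0.07, edgeR adjusted p = 0.00588). In mouse it had -0.54 ± 0.26 (SE) and was not called (edgeR adjusted p = 0.105). The species difference for Gpx4 was 0.22, also not called (edgeR adjusted p = 0.561). Txnrd2, the mitochondrial reductase, was called in neither species. Hmox2, the constitutive haem oxygenase, had 0.34 ± 0.13 (SE) in mouse and 0.32 ± 0.09 (SE) in spiny mouse (adjusted p = 0.0452 and 0.0108), and the mouse call was lost without treated replicate 1, 3 or 4 or untreated replicate 4 (0.33 to 0.37, adjusted p = 0.0703 to 0.0925), and with upper-quartile scaling (0.14, adjusted p = 0.282) or library size alone (0.11, adjusted p = 0.428). Gpx3, the plasma peroxidase, had -0.90 ± 0.30 (SE), edgeR adjusted p = 0.0245, in mouse, lost without treated replicate 1 or 2 or untreated replicate 1 or 3 (-0.80 to -0.67, adjusted p = 0.0612 to 0.0774). Prdx6 was at 79.8 to 142 CPM in untreated mouse but 1.51 to 2.69 CPM in untreated spiny mouse, and Gpx1 at 11.5 to 20.2 against 229.5 to 336 CPM. Fragments that aligned to several places were not counted, which leaves levels of genes with near-identical copies uncertain, and these gaps between species were not tested.

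Over 7 lists of pathway genes without the members, 32 of 84 tested genes rose and 14 fell in mouse, 29 of 82 rose and 18 fell in spiny mouse, and of 81 tested for the species difference 13 were positive and 25 negative. These lists include the 17 partners and copies above, so the counts are not separate from theirs. The share that rose was above the background of higher calls in both species, and the share that fell was below that of lower calls. Over all tested genes 25.9% were higher and 35.3% lower in mouse, and 28.2% and 26.9% in spiny mouse. Called at all were 46, 47 and 38 list genes, near or below the 61.2%, 55.1% and 46.1% of all tested genes. The counts of single lists below stand against these same shares. The median log2 fold change was 0.19 in mouse and 0.04 in spiny mouse, and the median difference was -0.15. The lists were chosen with results of these samples known and are not independent evidence of a direction.

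Genes of glutathione synthesis and use were higher in mouse for 8 of 15 and lower for 1 (median 0.48), and in spiny mouse 4 of 14 rose and 3 fell (median -0.21). The species difference was called for 6 of 14 genes of this list, a share not above the 46.1% of all shared genes. All 6 were negative, against 24.7% of all shared genes called as negative. The largest was that of Chac1, which degrades glutathione and is also an ATF4 target, with 3.10 ± 0.48 (SE), edgeR adjusted p = 0.000593, in mouse and -1.76 ± 0.96 (SE) in spiny mouse (adjusted p = 0.148). Its untreated spiny mouse samples spread from 11.8 to 163 CPM, and untreated mouse samples from 8.61 to 47.7 CPM. Ggt1, which cleaves extracellular glutathione, had 4.32 ± 1.01 (SE), edgeR adjusted p = 0.00523, in mouse, where untreated samples ran from 0.0407 to 5.79 CPM, the lowest under the level of 3 counts, and treated samples from 26.6 to 32.6 CPM. Glrx, glutaredoxin, rose in both species by 2.40 ± 0.38 (SE) and 1.51 ± 0.10 (SE) (adjusted p = 0.000679 and 1.39e-05).

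In the thioredoxin and peroxiredoxin list 4 of 13 genes rose and 2 fell in mouse, and 6 of 13 rose and 2 fell in spiny mouse, with medians of 0.02 and -0.01. Sesn2, a stress-induced sestrin, rose in both species by 1.33 ± 0.15 (SE) and 0.54 ± 0.08 (SE) (adjusted p = 0.000115 and 0.000575). Txnip, the inhibitor of thioredoxin, fell in mouse, at -1.57 ± 0.15 (SE), edgeR adjusted p = 4.1e-05, and had -0.26 ± 0.18 (SE) in spiny mouse (adjusted p = 0.234). For NADPH supply and quinone or aldehyde detoxification, 8 of 19 rose and 4 fell in mouse and 5 of 17 rose and 6 fell in spiny mouse (medians 0.38 and 0.01). Gsta4, a glutathione transferase for lipid aldehydes, rose in mouse (2.45 ± 0.44 (SE), edgeR adjusted p = 0.00127) and had -0.04 ± 0.10 (SE) in spiny mouse (adjusted p = 0.748), while Akr1b8, an aldo-keto reductase, rose further in spiny mouse (3.19 ± 0.17 (SE), edgeR adjusted p = 6.05e-06) than in mouse (0.92 ± 0.20 (SE), edgeR adjusted p = 0.00374), with a difference of 2.28 ± 0.27 (SE), edgeR adjusted p = 1.26e-05. Aldh3a1, an aldehyde dehydrogenase, fell in both, with log2 fold changes of -1.66 ± 0.20 (SE) and -1.33 ± 0.24 (SE) (adjusted p = 0.000151 and 0.00148).

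Haem and iron genes split within the list, with 4 of 11 higher and 3 lower in mouse and 3 of 11 in each direction in spiny mouse (medians -0.10 and 0.12). Slc40a1, the iron exporter ferroportin, rose in mouse (2.22 ± 0.10 (SE), edgeR adjusted p = 2.17e-06) and fell in spiny mouse, with -1.56 ± 0.39 (SE), edgeR adjusted p = 0.00802, and the fall was not called without untreated replicates 1 and 2 (-0.79, adjusted p = 0.0795). The ferritin heavy chain gene Fth1 went the other way, with -0.61 ± 0.21 (SE), edgeR adjusted p = 0.0315, in mouse, lost without any of treated replicates 1, 2 and 3 or untreated replicates 1 and 3 (-0.66 to -0.43, adjusted p = 0.0511 to 0.133) and without a low-count filter (-0.46, adjusted p = 0.0958), and a rise of 0.57 ± 0.12 (SE), edgeR adjusted p = 0.00384, in spiny mouse. The light chain gene Ftl1 rose in spiny mouse (0.69 ± 0.13 (SE), edgeR adjusted p = 0.0016) and had -0.43 ± 0.26 (SE) in mouse (adjusted p = 0.178). Of 4 superoxide dismutase and catalase genes none rose, 2 fell in mouse and 1 in spiny mouse (medians -0.51 and -0.11). Cat, catalase, fell in both, with log2 fold changes of -0.77 ± 0.16 (SE) and -0.61 ± 0.11 (SE) (adjusted p = 0.00258 and 0.0013).

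Regulators and partners of NRF2 rose in 4 and fell in 2 of 16 cases in mouse, and rose in 8 and fell in 3 in spiny mouse (medians 0.17 and 0.14). Nfe2l3, a relative of NRF2, rose in both species, by 1.75 ± 0.09 (SE) and 0.81 ± 0.08 (SE) (adjusted p = 3.4e-06 and 5.39e-05). Btrc, the adaptor of a KEAP1-independent NRF2 ligase, fell in both, with log2 fold changes of -1.28 ± 0.16 (SE) and -0.64 ± 0.10 (SE) (adjusted p = 0.000157 and 0.000535). ATF4 is a stress factor that also drives Slc7a11. Of a list of ATF4 and other targets of it 6 of 8 rose in mouse and 4 of 9 in spiny mouse, with none falling in either (medians 1.076 and 0.32). Over all tested genes 25.9% were called as higher in mouse and 28.2% in spiny mouse. Asns, asparagine synthetase, rose in mouse (1.67 ± 0.20 (SE), edgeR adjusted p = 0.000142) and had 0.04 ± 0.14 (SE) in spiny mouse (adjusted p = 0.81), while Trib3, a pseudokinase target of ATF4, had -0.05 ± 0.25 (SE) in mouse (adjusted p = 0.866) and rose in spiny mouse by 2.71 ± 0.28 (SE), edgeR adjusted p = 8.32e-05. Shmt2, mitochondrial serine hydroxymethyltransferase, rose in both (1.20 ± 0.11 (SE) and 1.08 ± 0.07 (SE), adjusted p = 3.93e-05 and 1.23e-05).

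**Figure D5:**
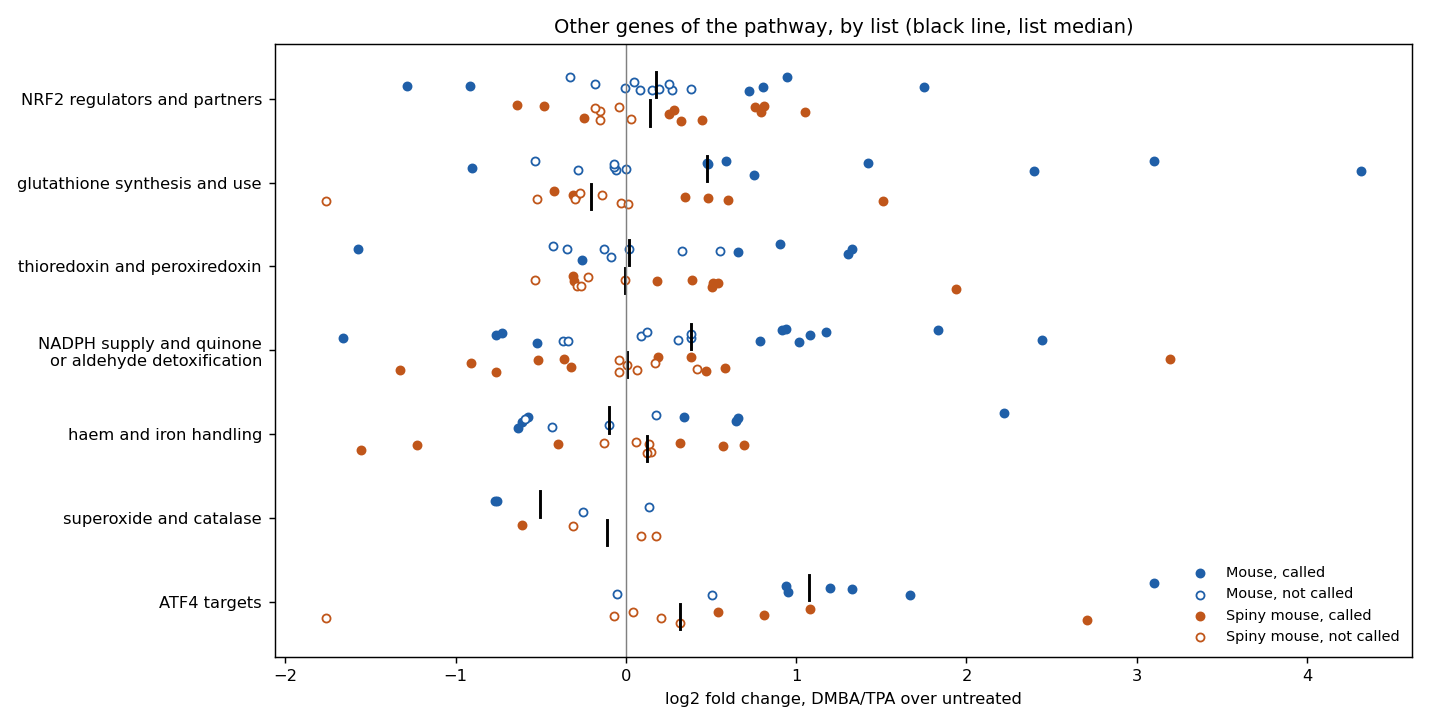
Log2 fold change with treatment of the genes in 7 lists of the pathway, mouse in blue and spiny mouse in orange, filled where edgeR called the gene; black lines are list medians, and points are spread vertically for legibility. The glutathione and ATF4 lists have medians of 0.48 and 1.076 in mouse against -0.21 and 0.32 in spiny mouse, and each list holds genes on both sides of 0 in at least 1 species.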

How the data were processed

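PolyA RNA of 16 skin samples, 4 in each of 4 groups, was read from 1 table of raw fragment counts per gene and species, deposited by the authors. Per the file headers, featureCounts 2.0.3 counted read pairs if both mates were aligned, with no strand option although the labels name a stranded library, on Ensembl 108 annotation in mouse (GRCm39) and on AcoCah2 in spiny mouse, and pairs with several alignments were not counted. Trim Galore and HISAT2 are named per the submitters' processing notes, versions not given in the sources used here. The gene length used for per-kilobase levels was deposited by the authors beside the counts. Treated columns carry the code of the treated libraries. Untreated columns carry another code, which the labels do not explain, and were matched by species letter and replicate number, and that of untreated mouse replicate 2 has an added suffix. Symbols were found for 56236 of 56980 mouse identifiers. The series' design text describes irradiated fibroblasts, and the sample labels were followed instead.

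The members and lists were chosen with earlier results of these data known. Each species was fitted with edgeR 4.0.16 (R 4.3.3: TMM, filterByExpr, quasi-likelihood F test, Benjamini-Hochberg adjustment over all genes), and the species difference as an interaction over shared symbols. The SE is the log2 fold change over the square root of F. Within-sample ratios were compared with exact two-sided permutation tests, adjusted over 6. Named genes were the 10 members, 17 partners or copies, and from each of 7 lists up to 2 largest rises and 2 largest falls among those called whose mean log2 CPM was 1 or more. Marker sets of 14 cell types were summed, and not all of them are printed. Alternatives were other scalings and filters, a robust fit, DESeq2 1.42.0, limma 3.58.1 with sample weights, the replicate block and each replicate left out. The fits were tested on simulated counts, drawn with the same dispersion for all genes. A log2 change of 1 was recovered for 64.3% of changed genes in mouse and 74% in spiny mouse. For the species difference it was recovered for 30%. For a log2 change of 2 the shares were 100%, 100% and 98%. A gene that was not called can therefore still have changed. With totals of 19608787 counts or more, 3 counts correspond to 0.158 CPM or less, which covers counting error only.

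The labels do not say whether same-numbered samples were paired, and the main fits treated them as unpaired. Deviations from the group means of same-numbered samples correlated between -0.008 and 0.023 in mouse and between -0.526 and -0.195 in spiny mouse. These correlations do not settle whether the samples were paired.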

Additional observations from a re-analysis of the deposited data

Results flagged for a closer look

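In untreated spiny mouse skin the highest Srxn1 sample, 60.97 CPM, lay further from the other 3 than Dixon's test allows for 4 samples. It was the only such sample among 40 groups of the 10 genes, and chance gives about 1 in 20.

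The change with treatment differed between the species, in edgeR's interaction test, for 34 of the genes named here. Over all shared genes 46.1% were called, and some genes were named because they were called. Negative values mean a lower log2 change in spiny mouse. Among the 10 genes they were -1.899 for Gclc, -1.414 for Gclm, -1.159 for Txnrd1, -0.70 for Srxn1, -2.947 for Slc7a11 and -3.35 for Gpx2. Among partners and copies they were -1.408 for Slc3a2, -0.779 for Gss, -1.191 for Prdx2, 0.754 for Blvrb and -2.346 for G6pdx. Among regulators they were 0.645 for Btrc, 1.669 for Trim21, -0.937 for Nfe2l3, 0.668 for Palb2 and -0.466 for Syvn1. In the glutathione and thioredoxin lists they were -4.845 for Ggt1, -4.862 for Chac1, -0.361 for Abcc1, 1.312 for Txnip, -0.789 for Sesn2, -0.852 for Prdx5 and 0.816 for Msrb1. In the detoxification list they were 0.722 for Gstm1, -2.488 for Gsta4 and 2.278 for Akr1b8. For haem, iron and superoxide they were 1.179 for Fth1, -3.777 for Slc40a1, -0.598 for Tfrc, -1.40 for Blvra, 1.125 for Ftl1 and 0.847 for Sod1. The ATF4 targets Asns and Trib3 had -1.627 and 2.759. The differences of Btrc, Gss, Palb2, Syvn1, Abcc1, Prdx5 and Blvrb were each lost under at least 1 alternative.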

How the results depend on the processing

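The 8 mouse calls of the 10 genes held under all 17 alternatives and the 6 species differences under all 26. In spiny mouse 3 of the genes were called, and 3 to 6 with 1 replicate left out, the 6 without treated replicate 3 (Hmox1, Gclm and Prdx1 added). With the replicate block, the calls among the 10 genes numbered 8 in mouse, 3 in spiny mouse and 7 for the difference, and 11246, 7418 and 5723 of all genes against 12085, 8180 and 6290 without it. The added difference was Hmox1 (-0.998, adjusted p = 0.0335). With 1 replicate left out, the log2 ratio difference ranged as follows, and at least 1 call changed in each. For Gclc over Gclm it was 0.026 to 0.295 in mouse, called without untreated replicate 2. In spiny mouse it was -0.421 to -0.21 (called without untreated replicate 3) for Gclc over Gclm, 0.962 to 1.576 for Slc7a11 over Slc3a2 and 0.494 to 0.636 for Nfe2l2 over Keap1, the last 2 losing the call when any treated replicate was left out (exact permutation adjusted p = 0.0857 and 0.0571). The groups of these 2 ratios still did not overlap then, and each adjusted p also depends on the other ratio tests. No called value changed sign. Relative to TMM, the median of all genes moved by -0.21 (upper-quartile) and -0.24 (library size alone) in mouse, and by 0.16 and 0.22 for the difference. Without a low-count filter it moved by 0.15 and -0.13, and with DESeq2 size factors by 0.10 and -0.10. Keap1, Hmox1, Slc7a11, Gclm and Prdx1 gained calls under alternatives described with each gene. Over all genes named, counting each pair of a gene and an alternative, a call was lost in 42 pairs in mouse, 32 in spiny mouse and 27 for the difference. The cause of these changes was not tested.

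Depth did not limit the 10 genes, since the smallest count was 100. The smallest exact p of a ratio is 0.0286 with 4 against 4 samples.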
